A study of Caenorhabditis elegans with 12 samples.

Results

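Caenorhabditis elegans larvae held for 24 h on 500 mM NaCl without bacteria were compared with larvae fed on 100 mM NaCl, so that salt and starvation together stood against growth. The members were taken from the sample titles: 6 of the 12 mRNA libraries of the series, 3 of unfed high-salt larvae and 3 of fed low-salt larvae, lettered A to C and labelled biological replicates. Larvae of all 4 groups were wild-type N2, the standard laboratory strain, plated as embryos from bleached parents at 5000 to a plate and kept at 25 °C. The unfed high-salt group had 500 mM NaCl and no Escherichia coli OP50. The fed low-salt group had 100 mM NaCl and OP50. The other 6 libraries are fed high-salt larvae (500 mM NaCl with OP50) and unfed low-salt larvae (100 mM NaCl without OP50). They entered the count filter, the scaling factors, the shared estimate of spread and the values side by side. The labels call every sample whole L1 larvae, and all were washed off at the same hour. Salt, food and developmental progress differ together between the 2 groups compared, so their parts in a difference cannot be told apart. The labels give the whole larva as the material, and the defining markers of its tissues (pgl-1 of the germline, unc-119 of neurons, myo-3 of muscle, elt-2 of the intestine and lin-26 of the epidermis) had reads in all 6 libraries. The embryo markers pos-1, pie-1 and mex-5 and the adult markers vit-2, vit-6, col-19 and rme-2 had reads in all 6 as well. The presence of reads therefore does not identify the material.

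First-stage larvae of this worm that hatch without food stop development before their first postembryonic cell divisions and can resume when they are fed. High salt can halt hatched larvae at the same stage, and worms under hyperosmotic stress accumulate glycerol. Insulin-like signalling through the receptor DAF-2 and the FOXO factor DAF-16 is central to starvation arrest, and fed larvae build and shed a collagen cuticle at each molt under a clock that includes LIN-42 and NHR-23.

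Reads on genes numbered 5613260, 17121600 and 15429996 in the unfed high-salt libraries and 16352879, 16622162 and 76542711 in the fed low-salt libraries, lettered A to C. Unfed high-salt A stands apart from the other libraries: 38.6% of its reads aligned and 17.1% of the aligned reads lay outside genes, against 70.1% to 91.3% and 1.87% to 5.90% in the other 11. Its log2 CPM values correlated across genes at 0.829 and 0.810 with those of unfed high-salt B and C, which correlated with each other at 0.958; the fed low-salt pairs lay at 0.984 to 0.986. All tests were therefore repeated without it. Reads of ribosomal RNA genes made up 6.32% to 18.2% of the reads on genes in the unfed high-salt and 2.65% to 4.68% in the fed low-salt libraries, and 39.9% and 81.8% in fed high-salt B and C. That leaves fed high-salt C with 3167905 other reads. With ribosomal RNA genes removed 7102 genes were called.

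Levels are read counts scaled to 1000000 reads of a library (CPM), listed from library A to library C, and differences are log2 fold changes ± standard error, positive where unfed high-salt larvae were higher. Adjusted p-values are from edgeR's quasi-likelihood test with Benjamini-Hochberg adjustment over all genes tested, and a gene is said to have risen, fallen or been called at an adjusted p under 0.05. Because whole larvae were sequenced, fewer cells of a type and less RNA per cell cannot be told apart.

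Unfed high-salt larvae lay far apart from fed low-salt larvae. The words with both stresses name the unfed high-salt group and not a trait of the combination. Between that group and fed high-salt larvae 14 genes were called, as given further below. Of 18028 genes tested, 7223 were called (40.1%), 3647 higher (20.2%) and 3576 lower (19.8%), and in 6072 of the called genes the difference exceeded 2-fold. Over all genes the log2 fold change had a median of 0.19. Upper-quartile scaling put that median at 0.56, a shift over 0.1, and 5309 genes rose and 2532 fell, so that 67.7% of calls were higher ones, against 50.5% with the main scaling. In 50.9% of all genes the 3 unfed high-salt and 3 fed low-salt libraries did not overlap in CPM. Most genes named below were picked by a small p in this same contrast, so their lack of overlap is no separate support. Counts by list are to be read beside the shares of all genes. Without unfed high-salt A 7082 genes were called, 3243 higher and 3839 lower, and 2677 of the genes that rose and 3192 of those that fell were called in the same direction in both fits. The count leans on the fed low-salt libraries: leaving out A, B or C of that group gave 5047, 4599 and 4728 genes.

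**Figure D1:**
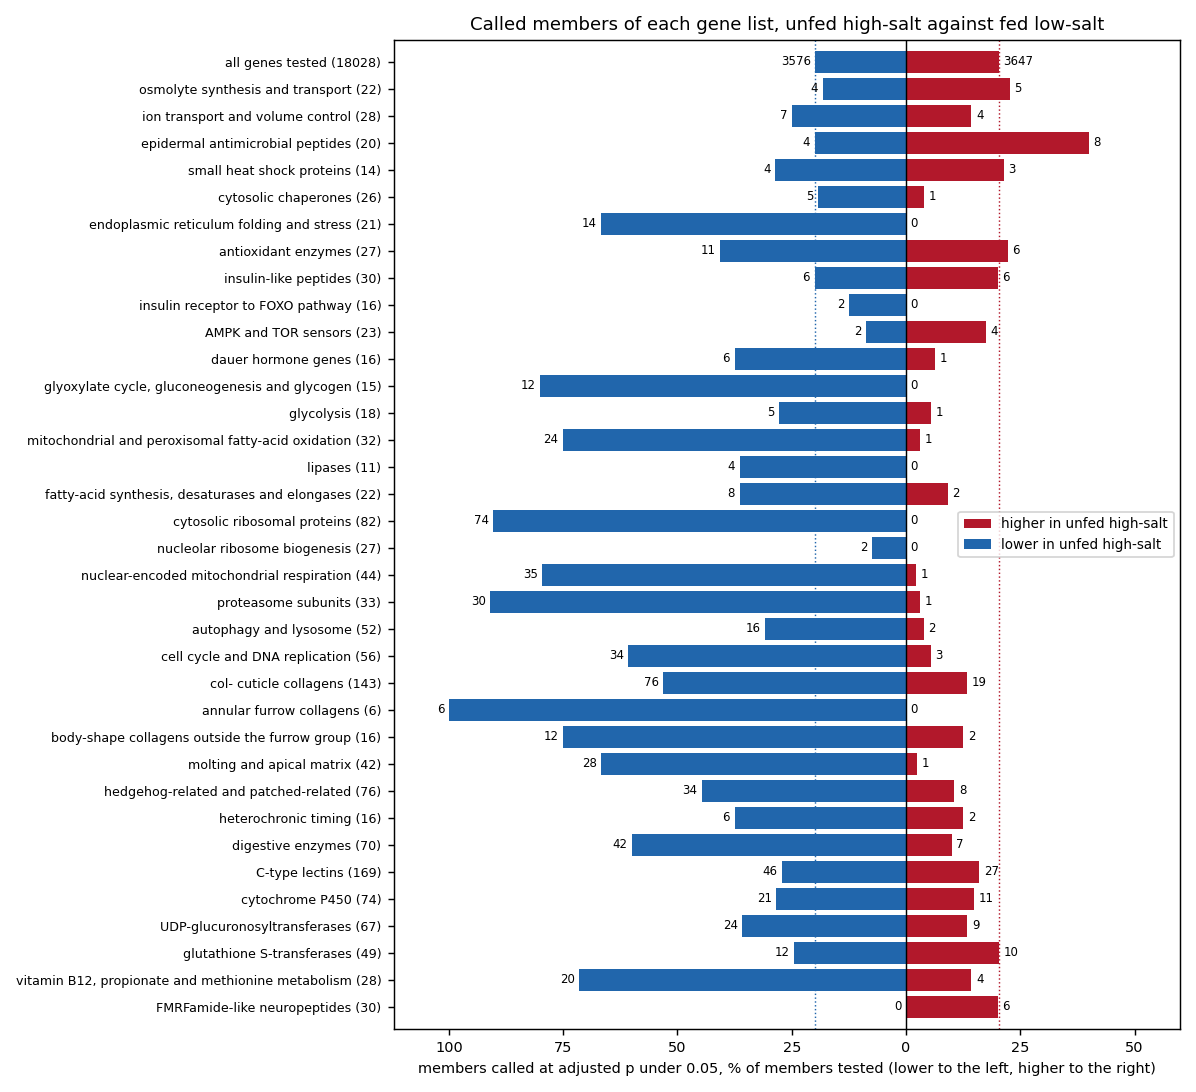
Share of the tested members of each gene list that was called at an adjusted p under 0.05, as % (horizontal axis), lower in unfed high-salt larvae to the left and higher to the right; the number at each bar counts the members, the number tested is in brackets, and dotted lines mark the shares over all 18028 genes. The bars to the left are longest for the annular furrow collagens (6 of 6), proteasome subunits (30 of 33) and cytosolic ribosomal proteins (74 of 82), and the longest bar to the right is that of the epidermal antimicrobial peptides (8 of 20); marker lists of tissues are not drawn.

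The 10 highest log2 fold changes among called genes that averaged 10 CPM or more in the higher group and had no overlap between the groups included a superoxide dismutase, a small heat shock protein and several genes with no symbol. D1086.9 had 716, 1675 and 403 CPM in unfed high-salt larvae, against 0.548, 0.179 and 0.397 CPM in fed low-salt larvae (log2 fold change 11.24 ± 0.71, adjusted p = 2.36e-07). The gene sod-5 (ZK430.3), which encodes a copper and zinc superoxide dismutase, had 593, 1012 and 93.4 CPM with both stresses and 2.99, 1.26 and 0.965 CPM in fed low-salt larvae (log2 fold change 8.41 ± 1.08, adjusted p = 7.86e-05). In both genes the lowest unfed high-salt library lay more than 30-fold above the highest fed low-salt library, and unfed high-salt C was the lowest of its group. The small heat shock gene hsp-16.21 (F08H9.4) had 834, 1439.8 and 116 CPM in the unfed high-salt libraries and 3.66, 2.75 and 1.55 CPM in the fed low-salt libraries (log2 fold change 8.27 ± 1.08). A member of the DJ-1 family, djr-1.2 (C49G7.11), had 198, 285 and 61.3 CPM in unfed high-salt larvae, against 0.853, 0.837 and 0.741 CPM in fed low-salt larvae (log2 fold change 7.82 ± 0.67). Both showed the same order of libraries as sod-5 within the unfed high-salt group. The aldehyde dehydrogenase gene alh-2 (K04F1.15), the kinase gene ttbk-5 (C04G2.2), clx-1 (C50F7.2), C37A5.5 and C37A5.6 stood at 7.98, 8.24, 8.93, 8.45 and 9.94 on the log2 scale. F13A2.4 had 1056 reads in the unfed high-salt libraries together and 1 read in the fed low-salt libraries, a ratio of 2394 after division by the TMM-scaled library sizes, with a 95% exact interval of 429 to 94633 that covers counting error only. All 10 were called in each fit that left out 1 of the 6 libraries compared. With fed low-salt C left out, C37A5.5 and C37A5.6 stood at 9.05 and 9.23. In the fit without unfed high-salt B, D1086.9, sod-5, hsp-16.21, alh-2, ttbk-5 and clx-1 stood at 10.44, 7.61, 7.45, 6.93, 7.41 and 7.09.

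The 10 lowest were dominated by cuticle collagens. The gene rol-6 (T01B7.7), whose collagen shapes the body, had 0.115, 0.412 and 0.404 CPM with both stresses and 449, 528 and 275 CPM in fed low-salt larvae (log2 fold change -10.22 ± 0.60, adjusted p = 1.1e-07). The gene col-17 (F11G11.10) had 7.02, 1.0997 and 0.462 CPM in the unfed high-salt libraries and 1213, 1614 and 897 CPM in the fed low-salt libraries (log2 fold change -8.91 ± 1.00, adjusted p = 2.79e-05). The groups were fully separate in both genes, as the rule for the 10 lowest required. The others were the collagen genes dpy-5 (F27C1.8), col-41 (T10B10.1), col-73 (F11G11.12), sqt-1 (B0491.2) and col-90 (C29E4.1), the long non-coding RNA lep-5 (H36L18.2), the infection response gene irg-5 (F35E12.5) and K02E11.10, at log2 fold changes of -8.38, -8.33, -8.17, -7.98, -7.80, -8.28, -7.91 and -9.54. In all of these except rol-6, unfed high-salt A was the highest library of its group, as in col-90, which had 7.60, 0.321 and 0.115 CPM in unfed high-salt larvae, against 573, 649.6 and 325 CPM in fed low-salt larvae. For col-17, dpy-5, col-41, col-73, sqt-1, col-90, irg-5 and K02E11.10, leaving out unfed high-salt A gave -10.60, -11.32, -9.21, -10.84, -9.95, -11.12, -9.80 and -10.70. The log2 fold change of K02E11.10 was -8.75 without unfed high-salt B.

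Genes of the cuticle fell together, in the collagens that build the annular furrows most uniformly. All 6 furrow collagen genes (dpy-2, dpy-3, dpy-7, dpy-8, dpy-9 and dpy-10), whose products form the circumferential furrows of the cuticle, fell, at log2 fold changes of -6.23 to -4.38 with a median of -5.66, beside 0.19 over all genes. Without unfed high-salt A the median was -6.35. The gene dpy-7 (F46C8.6) had 5.41, 4.67 and 3.81 CPM with both stresses and 297, 315 and 129 CPM in fed low-salt larvae (log2 fold change -5.75 ± 0.66, adjusted p = 2.27e-05). The gene dpy-10 (T14B4.7) had 10.0, 4.03 and 5.14 CPM in the unfed high-salt libraries and 251, 293 and 115 CPM in the fed low-salt libraries. In both, every fed low-salt library lay above 100 CPM and every unfed high-salt library at or below about 10 CPM, with fed low-salt C the lowest of its group. Of 16 other collagen and collagen-processing genes of body shape, 12 fell and 2 rose, with a median of -5.42, and of -6.05 without unfed high-salt A. Among those that fell were sqt-3 (F23H12.4), which had 33.0, 25.8 and 19.3 CPM in unfed high-salt larvae, against 1073, 1549.6 and 739 CPM in fed low-salt larvae (log2 fold change -5.43 ± 0.49, adjusted p = 2.16e-06). The gene sqt-2 (C01B12.1) fell too, at -7.24. The 2 that rose, dpy-14 (H27M09.4) and dpy-17 (F54D8.1), were looked up after the count was seen. The first had 40.0, 35.0 and 16.6 CPM with both stresses and 1.77, 3.17 and 2.04 CPM in fed low-salt larvae (log2 fold change 3.72 ± 0.76). The second had 81.5, 58.4 and 22.5 CPM in the unfed high-salt libraries and 12.9, 10.2 and 6.56 CPM in the fed low-salt libraries (log2 fold change 2.46 ± 0.70). The groups did not overlap in either. With unfed high-salt A left out, dpy-9, sqt-2, dpy-3 and dpy-8 stood at -8.34, -8.76, -6.85 and -7.42. The call of dpy-17 was lost without fed low-salt B or C (adjusted p up to 0.0796).

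Of 143 collagens named col- that were tested, out of 156 matched, 76 fell and 19 rose, with a median of -1.47. The members with the smallest p were all lower: col-111 (F29B9.9) had 3.80, 4.44 and 2.77 CPM in unfed high-salt larvae, against 88.4, 99.1 and 61.8 CPM in fed low-salt larvae (log2 fold change -4.50 ± 0.35, adjusted p = 1.32e-06). The genes col-162 (Y2H9A.3) and col-131 (C39E9.3) stood at -6.25 and -6.69. The family was not uniform. The members that rose ran up to col-50 (T28F2.6), named after its values were seen, which had 6.56, 8.89 and 3.35 CPM with both stresses and 0.122, 0.179 and 0.0397 CPM in fed low-salt larvae. The number that rose was 14 without unfed high-salt A, 11, 10 and 8 with fed low-salt A, B or C left out, and 9 with a filter of 5 CPM in 3 libraries, while the number that fell stayed between 67 and 83 over the 25 alternatives. The adult collagen gene col-19 (ZK1193.1) lay at 2.42, 0.183 and 0.173 CPM in the unfed high-salt libraries and 0.183, 0.179 and 0.410 CPM in the fed low-salt libraries, overlapping between the groups (adjusted p = 0.254). In the fit without fed low-salt C, col-50 stood at 5.27.

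**Figure D2:**
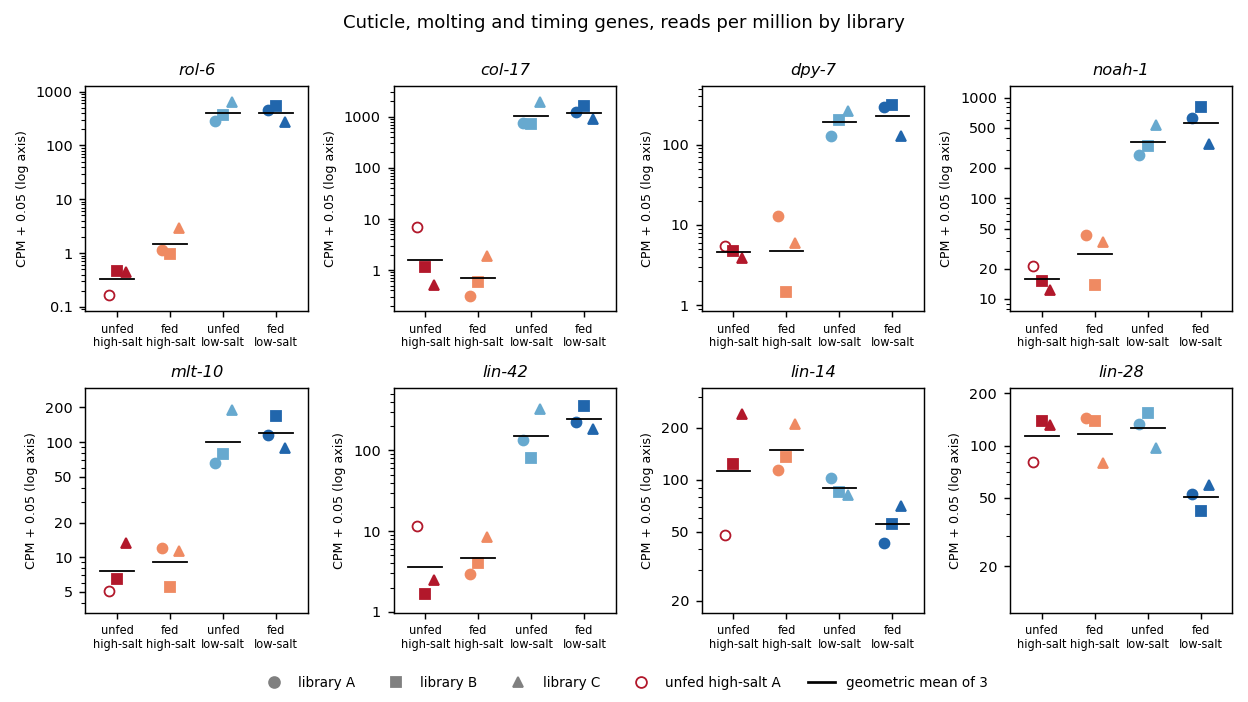
CPM plus 0.05 on a log axis in each library for 8 genes of the cuticle (rol-6, col-17, dpy-7, noah-1), of molting (mlt-10, lin-42) and of larval timing (lin-14, lin-28), by group; lines are geometric means of 3 libraries and the open circle is unfed high-salt A. The unfed high-salt libraries lie below all fed low-salt libraries in the first 6 genes, above them in lin-28, and overlap with them in lin-14.

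Most molting genes fell as well. Of 42 genes of molting and the apical matrix, 28 fell and 1 rose, with a median of -1.95. The gene noah-1 (C34G6.6), which encodes a zona pellucida domain protein of the apical matrix, had 21.4, 14.9 and 12.13 CPM in unfed high-salt larvae, against 621, 811 and 346 CPM in fed low-salt larvae (log2 fold change -5.20 ± 0.50, adjusted p = 3.81e-06). The molting gene mlt-10 (C09E8.3) had 5.07, 6.41 and 13.1 CPM with both stresses and 115, 169 and 88.2 CPM in fed low-salt larvae (log2 fold change -3.91 ± 0.49, adjusted p = 2.88e-05). Both were separate between groups, as were the hedgehog-related genes qua-1 (T05C12.10) and wrt-10 (ZK1290.8) and the matrix metalloprotease gene zmp-2 (H19M22.3), at -4.61, -5.75 and -2.92. The member that rose was nhr-25 (F11C1.6), a nuclear receptor gene named after its value was seen, at 1.14. Hedgehog-related and patched-related genes, many of which are made in the epidermis at molts, gave 34 lower and 8 higher of 76, with a median of -0.996; grl-16 (Y65B4BR.6) had 9.56, 7.70 and 3.58 CPM in the unfed high-salt libraries and 212, 385 and 302 CPM in the fed low-salt libraries (log2 fold change -5.44 ± 0.46). The genes grd-5 (F41E6.2) and wrt-2 (F52E4.6) stood at -3.51 and -5.42. The 8 that rose became 2, 4 and 2 with fed low-salt A, B or C left out and 1 with no count filter, while upper-quartile scaling gave 15. The call of nhr-25 was lost without fed low-salt A (adjusted p up to 0.0532).

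Of 16 heterochronic genes, which set the timing of larval stages, 6 fell and 2 rose, with a median of -0.20 (0.14 under upper-quartile scaling). The gene lin-42 (F47F6.1), a homolog of Period that cycles with the molts, had 11.5, 1.60 and 2.43 CPM in unfed high-salt larvae, against 227, 349.9 and 186 CPM in fed low-salt larvae (log2 fold change -5.70 ± 0.80, adjusted p = 0.000152). The nuclear receptor gene nhr-23 (C01H6.5) had 26.5, 25.4 and 19.2 CPM with both stresses and 60.5, 76.8 and 46.1 CPM in fed low-salt larvae (log2 fold change -1.37 ± 0.25). The gene lin-29 (W03C9.4), a zinc-finger gene of the passage to the adult, had 2.07, 1.05 and 2.25 CPM in the unfed high-salt libraries and 10.1, 11.3 and 7.62 CPM in the fed low-salt libraries (log2 fold change -2.44 ± 0.45). All 3 were lower in every unfed high-salt library than in any fed low-salt library. The non-coding RNA lep-5 had 1.04, 0.229 and 0.462 CPM in unfed high-salt larvae, against 178, 257 and 30.3 CPM in fed low-salt larvae (log2 fold change -8.28 ± 0.80), the fed low-salt libraries being 8-fold apart. The 2 genes that rose are those that specify early larval fates. The first, lin-28 (F02E9.2), had 79.8, 138 and 132 CPM with both stresses and 52.6, 41.7 and 58.8 CPM in fed low-salt larvae (log2 fold change 1.19 ± 0.31, adjusted p = 0.00645). The gene lin-14 (T25C12.1) had 48.1, 123 and 240.2 CPM in the unfed high-salt libraries and 43.1, 55.2 and 70.6 CPM in the fed low-salt libraries (log2 fold change 1.28 ± 0.43, adjusted p = 0.0266), where unfed high-salt A lay within the fed low-salt range. For lin-42, leaving out unfed high-salt A gave -6.99. The log2 fold change of lin-14 was 0.56 without unfed high-salt C. The call of lin-28 was lost without fed low-salt B (adjusted p up to 0.0587). The call of lin-14 was lost without unfed high-salt C or fed low-salt A or B or with the 2 groups alone in the fit (adjusted p up to 0.237).

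Genes of the ribosome, the proteasome, mitochondrial respiration and DNA replication were lower in most members. Of 82 cytosolic ribosomal protein genes 74 fell and 0 rose, with a median of -1.05. The gene rpl-3 (F13B10.2) had 1102, 1617 and 1799.6 CPM in unfed high-salt larvae, against 4313, 4278 and 4079 CPM in fed low-salt larvae (log2 fold change -1.49 ± 0.27, adjusted p = 0.000503). The gene rps-2 (C49H3.11) had 1120.3, 1229 and 1252 CPM with both stresses and 3145, 3093 and 2806 CPM in fed low-salt larvae (log2 fold change -1.33 ± 0.26). The gene rpl-11.1 (T22F3.4) had 61.9, 72.7 and 64.7 CPM in the unfed high-salt libraries and 407, 323 and 312 CPM in the fed low-salt libraries (log2 fold change -2.39 ± 0.37). The groups were separate in each of these 3, which were picked by smallest p, and in 81 of the 82 members, beside 50.9% of all genes. The count of ribosomal genes that fell was 57 without unfed high-salt A, 40 without fed low-salt A and 46 with upper-quartile scaling, where the median was -0.68. Among genes of nucleolar ribosome biogenesis 2 of 27 fell, nucl-1 (K07H8.10), nucleolin, at -1.45 and the helicase gene ddx-27 (Y71G12B.8) at -0.91, and 0 rose. Their median was -0.28, and 0.05 under upper-quartile scaling, where 3 rose and 1 fell, and the number that fell ran from 0 to 8 over the alternatives, 8 of them without unfed high-salt C and 0 without fed low-salt B. The call of nucl-1 was lost without fed low-salt B (adjusted p up to 0.0557). The call of ddx-27 was lost without unfed high-salt A or B or fed low-salt B or C or with upper-quartile scaling, a filter of 5 CPM in 3 libraries, the 2 groups alone in the fit or counts thinned to equal depth (adjusted p up to 0.12).

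Of 33 proteasome subunit genes 30 fell and 1 rose, with a median of -1.48. The core subunit gene pbs-3 (Y38A8.2) had 18.3, 29.4 and 33.4 CPM in unfed high-salt larvae, against 114, 115 and 105 CPM in fed low-salt larvae (log2 fold change -2.04 ± 0.28, adjusted p = 6.65e-05). The gene rpn-11 (K07D4.3), the deubiquitinase of the lid, had 31.0, 37.9 and 30.7 CPM with both stresses and 120.5, 128 and 117 CPM in fed low-salt larvae (log2 fold change -1.88 ± 0.23, adjusted p = 2.51e-05). The subunit genes pbs-7 (F39H11.5) and pas-6 (CD4.6) stood at -1.999 and -1.95. The 1 that rose was rpn-6.2 (F59B2.5), with 5.64, 8.20 and 3.46 CPM in the unfed high-salt libraries and 2.68, 2.57 and 2.71 CPM in the fed low-salt libraries, named after its values were seen. Of 44 nuclear genes of mitochondrial respiration 35 fell and 1 rose, with a median of -1.13. The ATP synthase gene atp-1 (H28O16.1) had 516, 594 and 939.8 CPM in unfed high-salt larvae, against 2398, 2581 and 2861 CPM in fed low-salt larvae (log2 fold change -1.94 ± 0.30). The succinate dehydrogenase gene sdha-1 (C03G5.1) had 36.5, 47.3 and 63.0 CPM with both stresses and 205, 245 and 298 CPM in fed low-salt larvae (log2 fold change -2.35 ± 0.32), with no overlap in either. The exception was ant-1.2 (W02D3.6), an adenine nucleotide translocator gene singled out after its values were seen, with 14.7, 37.3 and 4.74 CPM in the unfed high-salt libraries and 1.16, 1.08 and 0.899 CPM in the fed low-salt libraries (log2 fold change 4.20 ± 0.76). With unfed high-salt B left out, ant-1.2 stood at 3.15. The call of rpn-6.2 was lost without unfed high-salt B or any 1 fed low-salt library or with no count filter (adjusted p up to 0.174).

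Of 56 genes of DNA replication and the cell cycle 34 fell and 3 rose, with a median of -1.24. The gene pcn-1 (W03D2.4), the sliding clamp of DNA polymerase, had 14.05, 9.62 and 9.88 CPM in unfed high-salt larvae, against 69.4, 72.8 and 57.8 CPM in fed low-salt larvae (log2 fold change -2.58 ± 0.30, adjusted p = 1.3e-05). The helicase subunit gene mcm-4 (Y39G10AR.14) had 11.5, 8.71 and 11.7 CPM with both stresses and 57.4, 70.7 and 59.2 CPM in fed low-salt larvae (log2 fold change -2.56 ± 0.27). The gene cdk-1 (T05G5.3) had 7.48, 6.74 and 6.93 CPM in the unfed high-salt libraries and 36.1, 36.8 and 30.7 CPM in the fed low-salt libraries (log2 fold change -2.29 ± 0.25). In these genes the fed low-salt libraries lay 3-fold or more above the unfed high-salt libraries. The 3 that rose, looked up after the count was seen, were the kinase inhibitor genes cki-2 (T05A6.2) and cki-1 (T05A6.1) and the cyclin D gene cyd-1 (Y38F1A.5), at 1.48, 0.71 and 0.68. The number that rose was 1 when fed low-salt A, B or C, fed high-salt B or unfed low-salt B was left out or ribosomal RNA genes were removed, and 6 with upper-quartile scaling. Of 52 autophagy and lysosome genes 16 fell and 2 rose, with a median of -0.35 that became 0.01 with upper-quartile scaling. Of the 16 that fell, 15 were among the 20 members named vha-, which encode subunits of the vacuolar proton pump, a grouping made after the values were seen. Among them vha-10 (F46F11.5) had 90.7, 155 and 179 CPM in unfed high-salt larvae, against 451, 405 and 444 CPM in fed low-salt larvae (log2 fold change -1.61 ± 0.31). The gene epg-2 (Y39G10AR.10), an autophagy adaptor gene, rose with 78.4, 113 and 117 CPM with both stresses and 30.7, 38.2 and 43.6 CPM in fed low-salt larvae (log2 fold change 1.45 ± 0.25, adjusted p = 0.000389). The call of cki-1 was lost without unfed low-salt B or unfed high-salt B or any 1 fed low-salt library or fed high-salt B or with no count filter or rRNA genes removed (adjusted p up to 0.278). The call of cyd-1 was lost without any 1 unfed low-salt library or unfed high-salt B or C or any 1 fed low-salt library or any 1 fed high-salt library or with no count filter or rRNA genes removed (adjusted p up to 0.299).

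**Figure D3:**
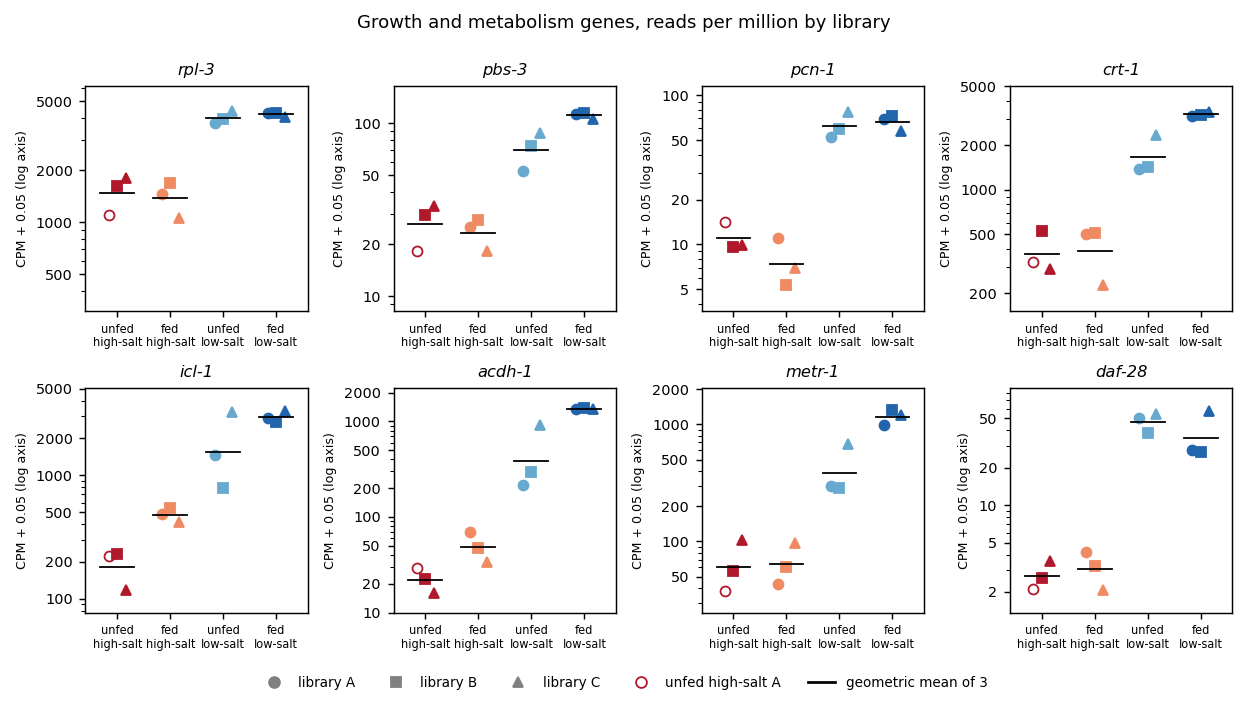
CPM plus 0.05 on a log axis in each library for 8 genes of protein synthesis, proteolysis, replication, folding, metabolism and insulin-like signalling, by group; lines are geometric means of 3 libraries and the open circle is unfed high-salt A. In all 8 genes the unfed high-salt libraries lie below every fed low-salt library, as in acdh-1, with 16.1 to 29.2 against 1336 to 1379 CPM.

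Most listed genes of propionate and methionine metabolism, of the glyoxylate cycle and of fatty-acid oxidation fell, while most of those of glycolysis, lipases and fatty-acid synthesis did not pass the test. Of 28 genes of propionate and methionine metabolism and its vitamin B12 steps 20 fell and 4 rose, with a median of -2.16. The acyl-CoA dehydrogenase gene acdh-1 (C55B7.4), of the propionate breakdown route that runs without vitamin B12, had 29.2, 22.2 and 16.1 CPM in the unfed high-salt libraries and 1336, 1379 and 1345 CPM in the fed low-salt libraries (log2 fold change -5.91 ± 0.54, adjusted p = 2.58e-06). The methionine synthase gene metr-1 (R03D7.1) had 38.0, 55.8 and 102 CPM in unfed high-salt larvae, against 991, 1319 and 1192 CPM in fed low-salt larvae (log2 fold change -4.16 ± 0.46, adjusted p = 1e-05). The hydratase gene ech-6 (T05G5.6) and the nuclear receptor gene nhr-68 (H12C20.3), an activator of the propionate route, stood at -4.26 and -2.76. The 4 that rose were sams-5, alh-8, cbs-1 and cth-2, named after the count was seen; cbs-1 (ZC373.1), which encodes cystathionine beta-synthase, had 80.8, 174 and 83.4 CPM with both stresses and 44.5, 49.6 and 45.2 CPM in fed low-salt larvae (log2 fold change 1.28 ± 0.32). With no count filter 1 of the 4 was called. In the fit without unfed high-salt A, sams-5 stood at 1.23. The call of cbs-1 was lost without unfed high-salt B (adjusted p up to 0.0508). The call of sams-5 was lost without unfed high-salt A or any 1 fed low-salt library or fed high-salt A or B or with no count filter or the 2 groups alone in the fit (adjusted p up to 0.156). The call of alh-8 was lost with no count filter (adjusted p up to 0.0818). The call of cth-2 was lost with no count filter (adjusted p up to 0.0501).

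Of 15 genes of the glyoxylate cycle, gluconeogenesis and glycogen 12 fell and 0 rose, with a median of -1.37. The gene icl-1 (C05E4.9), the glyoxylate cycle enzyme, had 221, 232 and 118 CPM in the unfed high-salt libraries and 2916, 2695 and 3316 CPM in the fed low-salt libraries (log2 fold change -3.97 ± 0.45, adjusted p = 1.16e-05). The fructose bisphosphatase gene fbp-1 (K07A3.1) had 50.9, 45.9 and 51.9 CPM in unfed high-salt larvae, against 310.5, 279 and 336 CPM in fed low-salt larvae (log2 fold change -2.64 ± 0.30), and the malate dehydrogenase genes mdh-1 (F46E10.10) and mdh-2 (F20H11.3) stood at -2.53 and -2.27. No unfed high-salt library reached a fed low-salt library in any of the 4. Of 18 glycolysis genes 5 fell and 1 rose, with a median of -0.43; enolase, enol-1 (T21B10.2), had 144, 232 and 198 CPM with both stresses and 874, 818 and 1040.4 CPM in fed low-salt larvae (log2 fold change -2.25 ± 0.29), while the phosphofructokinase gene pfk-1.2 (C50F4.2) rose, with 11.97, 6.09 and 7.74 CPM in the unfed high-salt libraries and 0.853, 0.777 and 0.886 CPM in the fed low-salt libraries (log2 fold change 3.33 ± 0.40, adjusted p = 2.14e-05).

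Of 32 genes of mitochondrial and peroxisomal fatty-acid oxidation 24 fell and 1 rose, with a median of -1.45. The acyl-CoA synthetase gene acs-2 (F28F8.2) had 21.2, 30.3 and 4.39 CPM in unfed high-salt larvae, against 419, 390.2 and 526 CPM in fed low-salt larvae (log2 fold change -4.58 ± 0.76, adjusted p = 0.000527). The thiolase gene kat-1 (T02G5.8) had 35.5, 40.1 and 58.2 CPM with both stresses and 275, 279.7 and 304 CPM in fed low-salt larvae (log2 fold change -2.68 ± 0.33). The gene dhs-28 (M03A8.1), of peroxisomal side-chain shortening, had 70.2, 85.5 and 56.8 CPM in the unfed high-salt libraries and 370.5, 361 and 310.2 CPM in the fed low-salt libraries (log2 fold change -2.29 ± 0.27). The groups were separate in all 3, and acs-2 was 7-fold lower in unfed high-salt C than in unfed high-salt B. The 1 that rose was cpt-3 (Y48G9A.10), with 14.4, 1.60 and 2.89 CPM in unfed high-salt larvae, against 1.58, 0.897 and 1.24 CPM in fed low-salt larvae. Of 11 lipase genes 4 fell and 0 rose, lipl-5 (ZK6.7) with 5.18, 6.09 and 8.89 CPM with both stresses and 140.1, 123 and 154 CPM in fed low-salt larvae (log2 fold change -4.36 ± 0.38, adjusted p = 2.16e-06); 6 fell without unfed high-salt A, and 2 without fed low-salt A or with upper-quartile scaling. Of 22 genes of fatty-acid synthesis, desaturases and elongases 8 fell and 2 rose, with a median of -0.64. The ATP-citrate lyase gene acly-2 (B0365.1) and the omega-3 desaturase gene fat-1 (Y67H2A.8) fell, at -2.67 and -2.39. The genes fat-5 (W06D12.3), a desaturase, and elo-8 (Y47D3A.30), an elongase, looked up after the count was seen, rose, at 1.23 and 2.08. For cpt-3, leaving out unfed high-salt A gave 0.84. The log2 fold change of acs-2 was -5.22 without unfed high-salt B. The call of cpt-3 was lost without unfed high-salt A or fed low-salt B or C (adjusted p up to 0.2).

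Osmolyte and water transport genes went both ways. Of 22 genes 5 rose and 4 fell, shares near those of all genes, with a median of -0.07 that became 0.28 with upper-quartile scaling. The gene gpdh-1 (F47G4.3), the glycerol-3-phosphate dehydrogenase known for induction by salt, had 31.5, 39.5 and 57.4 CPM in the unfed high-salt libraries and 9.51, 20.3 and 15.7 CPM in the fed low-salt libraries (log2 fold change 1.498 ± 0.34, adjusted p = 0.00318). Its paralog gpdh-2 (K11H3.1) had 79.2, 86.1 and 103 CPM in unfed high-salt larvae, against 258, 276 and 305 CPM in fed low-salt larvae (log2 fold change -1.65 ± 0.26, adjusted p = 0.000169). The paralogs thus differed in opposite directions, each with no overlap between the groups. The inositol transporter gene hmit-1.2 (Y51A2D.5) rose, with 43.6, 40.6 and 69.9 CPM with both stresses and 11.1, 15.7 and 7.91 CPM in fed low-salt larvae (log2 fold change 2.16 ± 0.29, adjusted p = 4.43e-05), whereas hmit-1.1 (Y51A2D.4) overlapped between the groups, with 30.6, 70.3 and 63.9 CPM in the unfed high-salt libraries and 19.9, 41.9 and 31.1 CPM in the fed low-salt libraries (log2 fold change 0.83, adjusted p = 0.0506, and 0.00626 without unfed high-salt A). The aquaporin gene aqp-8 (K02G10.7) fell, with 8.75, 7.79 and 14.4 CPM in unfed high-salt larvae, against 65.9, 61.5 and 71.5 CPM in fed low-salt larvae (log2 fold change -2.68 ± 0.29, adjusted p = 7.88e-06). The gene aqp-6 (C32C4.2) rose, with 9.44, 18.9 and 12.2 CPM with both stresses and 1.89, 2.57 and 1.75 CPM in fed low-salt larvae (log2 fold change 2.73 ± 0.37). The other called members, named after their values were seen, were aqp-5 (3.04) and the trehalase gene tre-2 (1.38), which rose, and aqp-7 (-1.85) and the trehalose phosphatase gene gob-1 (-1.33), which fell. The trehalose synthases tps-1 (ZK54.2) and tps-2 (F19H8.1) did not pass, at 0.10 and -0.70 (adjusted p = 0.808 and 0.163). With unfed high-salt C left out, tre-2 and aqp-7 stood at 0.74 and -2.69.

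Of 28 genes of ion transport and volume control 4 rose and 7 fell, with a median of -0.10 that became 0.23 with upper-quartile scaling. The chloride channel genes clh-3 (E04F6.11) and clh-4 (T06F4.2) rose, at 0.95 and 1.41. The sodium pump beta subunit gene nkb-2 (C43F9.6) had 4.84, 3.30 and 1.85 CPM in the unfed high-salt libraries and 0.183, 0.0598 and 0.0926 CPM in the fed low-salt libraries (log2 fold change 4.86 ± 1.07), and the sodium-proton exchanger gene nhx-2 (B0495.4) fell, with 39.8, 37.1 and 66.8 CPM in unfed high-salt larvae, against 132, 120.1 and 154 CPM in fed low-salt larvae (log2 fold change -1.50 ± 0.31, adjusted p = 0.00164). The number that fell was 3 and 2 without fed low-salt B and C, and upper-quartile scaling turned the balance, with 6 higher and 2 lower. The call of clh-3 was lost without fed low-salt A or B or with no count filter (adjusted p up to 0.0837).

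**Figure D4:**
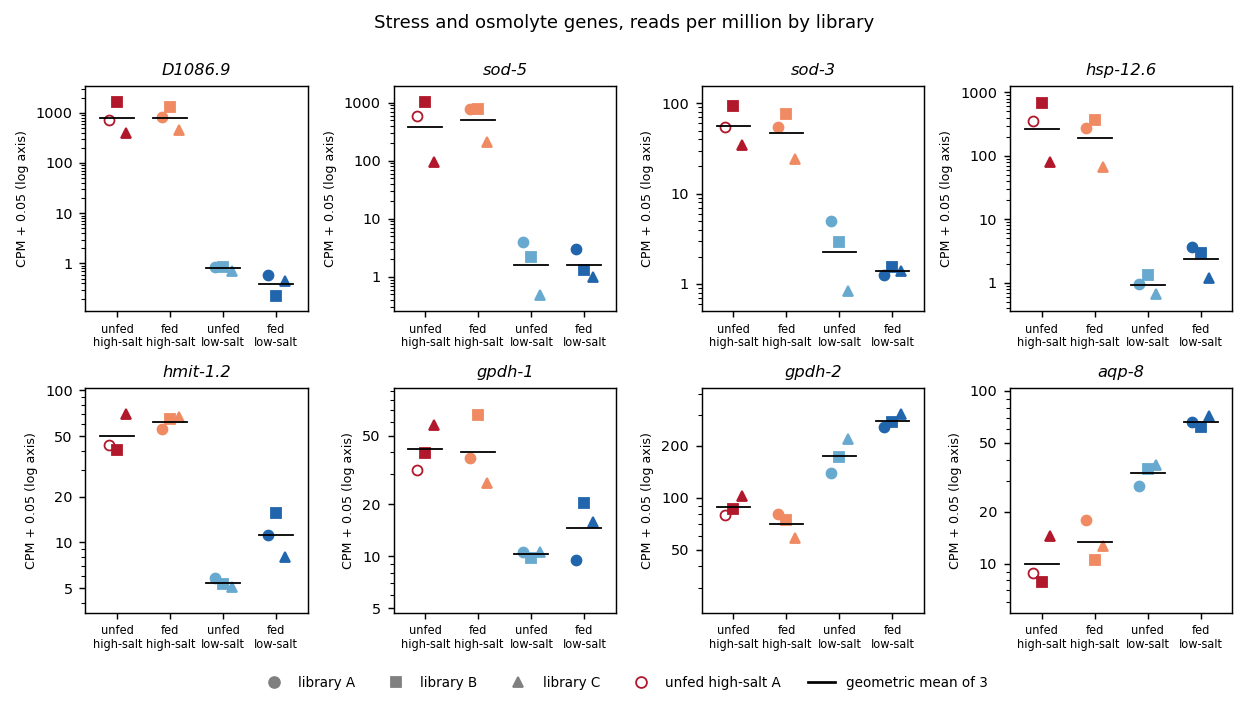
CPM plus 0.05 on a log axis in each library for 8 stress and osmolyte genes, by group; lines are geometric means of 3 libraries and the open circle is unfed high-salt A. The unfed high-salt libraries lie above all fed low-salt libraries in D1086.9, sod-5, sod-3, hsp-12.6, hmit-1.2 and gpdh-1, and below them in gpdh-2 and aqp-8.

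Antioxidant and small heat shock genes held members that rose many-fold beside members that fell. Of 27 antioxidant enzyme genes 6 rose and 11 fell (22.2% and 40.7%, beside 20.2% and 19.8% of all genes). The share of risers was thus near that of all genes. The median was -0.39 (0.03 under upper-quartile scaling). Beside sod-5, the mitochondrial superoxide dismutase gene sod-3 (C08A9.1), a known target of DAF-16, had 55.2, 94.3 and 34.1 CPM with both stresses and 1.22, 1.49 and 1.35 CPM in fed low-salt larvae (log2 fold change 5.49 ± 0.63, adjusted p = 2.43e-05). The glutathione peroxidase gene gpx-3 (C11E4.2) had 35.1, 36.8 and 46.4 CPM in the unfed high-salt libraries and 9.57, 8.37 and 10.98 CPM in the fed low-salt libraries (log2 fold change 2.03 ± 0.25). Those that fell include the methionine sulfoxide reductase gene msra-1 (F43E2.5), with 30.5, 21.2 and 33.3 CPM in unfed high-salt larvae, against 754, 706 and 778 CPM in fed low-salt larvae (log2 fold change -4.72 ± 0.42, adjusted p = 2.16e-06), and the mitochondrial peroxiredoxin gene prdx-3 (R07E5.2) at -1.92. Each of these was separate between groups.

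Of 14 listed small heat shock protein genes 3 rose and 4 fell (21.4% and 28.6%, beside 20.2% and 19.8% of all genes). With upper-quartile scaling 3 rose and 3 fell. Not on the list is hsp-16.21, which rose as given above. The gene hsp-12.6 (F38E11.2) had 357, 683 and 79.3 CPM with both stresses and 3.66, 2.93 and 1.14 CPM in fed low-salt larvae (log2 fold change 7.23 ± 0.91, adjusted p = 6.69e-05). The genes hsp-12.3 (F38E11.1) and hsp-12.2 (C14B9.1) rose, at 2.49 and 1.35. The gene hsp-12.1 (T22A3.2) fell, with 2.42, 1.51 and 3.52 CPM in the unfed high-salt libraries and 12.3, 11.6 and 10.2 CPM in the fed low-salt libraries. The heat-inducible hsp-16 genes of the list (hsp-16.1, hsp-16.11, hsp-16.2, hsp-16.41, hsp-16.48 and hsp-16.49) were not called, at -1.73 to -0.31. For hsp-16.2 (Y46H3A.3) the values were 106, 33.8 and 16.6 CPM in unfed high-salt larvae, against 224, 175 and 118 CPM in fed low-salt larvae (log2 fold change -1.73, adjusted p = 0.0587, and 0.00594 without unfed high-salt A), unfed high-salt A being the highest of its group in all 6. Near-identical copies among the hsp-16 genes make their counts uncertain. The number of the list that fell was 6 without unfed high-salt A. Of 26 cytosolic chaperone genes 5 fell (19.2%, near the 19.8% of all genes) and 1 rose (3.85%), with a median of -0.42. Leaving out unfed high-salt A gave 5 lower and 0 higher, and upper-quartile scaling turned the balance, with 5 higher and 3 lower and a median of -0.01. Among those that fell, the co-chaperone gene sti-1 (R09E12.3) had 58.7, 66.6 and 27.3 CPM with both stresses and 166, 201 and 154 CPM in fed low-salt larvae (log2 fold change -1.77 ± 0.36, adjusted p = 0.00123). The 1 that rose was the heat shock factor gene hsf-1 (Y53C10A.12), with 541, 129.7 and 51.3 CPM in the unfed high-salt libraries and 54.4, 40.0 and 55.9 CPM in the fed low-salt libraries, so that the groups overlapped. The number that fell was 9 without unfed high-salt B and 3 without fed low-salt B. In the fit without unfed high-salt A, hsf-1 stood at 0.85. For hsp-12.6, leaving out unfed high-salt B gave 6.39. The call of hsf-1 was lost without unfed high-salt A or any 1 fed low-salt library (adjusted p up to 0.175).

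Of 21 genes of folding and stress in the endoplasmic reticulum 14 fell and 0 rose, with a median of -1.46. The calreticulin gene crt-1 (Y38A10A.5) had 326, 526 and 292 CPM in unfed high-salt larvae, against 3175, 3220.4 and 3375 CPM in fed low-salt larvae (log2 fold change -3.09 ± 0.37, adjusted p = 1.74e-05). The disulfide isomerase gene pdi-2 (C07A12.4) had 249, 227 and 187 CPM with both stresses and 2288, 2746 and 2282 CPM in fed low-salt larvae (log2 fold change -3.46 ± 0.35). A second isomerase gene, pdi-6 (B0403.4), had 77.0, 90.7 and 73.8 CPM in the unfed high-salt libraries and 682, 750.2 and 712 CPM in the fed low-salt libraries (log2 fold change -3.15 ± 0.34). All fed low-salt libraries were more than 5-fold above all unfed high-salt libraries in these 3 genes. The BiP gene hsp-4 (F43E2.8), the usual reporter of stress in this compartment and chosen after its values were seen, fell too, with 49.05, 81.6 and 46.5 CPM in unfed high-salt larvae, against 183, 288 and 215 CPM in fed low-salt larvae (log2 fold change -1.95 ± 0.29). The sensor genes ire-1, pek-1 and atf-6 did not pass, at -0.68, -0.74 and -0.31 (adjusted p = 0.0883, 0.118 and 0.343).

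Among epidermal antimicrobial peptide genes, which respond to wounding, fungal infection and osmotic stress, 8 of 20 rose and 4 fell, with a median of 0.51. The caenacin gene cnc-11 (R09B5.13) had 157, 226 and 33.1 CPM with both stresses and 1.77, 1.43 and 0.489 CPM in fed low-salt larvae (log2 fold change 6.94 ± 0.97, adjusted p = 0.000142). The gene cnc-6 (Y46E12A.1) had 82.8, 74.6 and 38.9 CPM in the unfed high-salt libraries and 9.14, 8.49 and 4.36 CPM in the fed low-salt libraries (log2 fold change 3.17 ± 0.48). The genes nlp-28 (B0213.3) and nlp-29 (B0213.4) rose, nlp-29 with 237, 316 and 117 CPM in unfed high-salt larvae, against 69.8, 64.4 and 44.6 CPM in fed low-salt larvae (log2 fold change 1.91 ± 0.55, adjusted p = 0.0134). The caenacin gene cnc-3 (R09B5.8) fell, with 2.99, 1.56 and 1.85 CPM with both stresses and 55.2, 40.6 and 32.9 CPM in fed low-salt larvae (log2 fold change -4.38 ± 0.45, adjusted p = 5.85e-06), so members of one family moved in opposite directions without overlap. Without unfed high-salt A 7 rose and 6 fell, and with no count filter 7 fell. The log2 fold change of cnc-11 was 6.32 without unfed high-salt B. The call of nlp-29 was lost without unfed high-salt B or fed low-salt C (adjusted p up to 0.0671).

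Of 30 insulin-like peptide genes 6 rose and 6 fell, close to the 20.2% and 19.8% of all genes, with a median of -0.41. The gene daf-28 (Y116F11B.1), a peptide that promotes growth through DAF-2, had 2.07, 2.52 and 3.52 CPM in the unfed high-salt libraries and 27.97, 26.5 and 57.3 CPM in the fed low-salt libraries (log2 fold change -3.77 ± 0.36, adjusted p = 4.1e-06). The insulin-like gene ins-33 (W09C5.4) had 1.73, 0.137 and 0.0577 CPM in unfed high-salt larvae, against 42.5, 19.7 and 63.6 CPM in fed low-salt larvae (log2 fold change -6.47 ± 0.89). The gene ins-35 (K02E2.4) had 1.73, 0.916 and 0.982 CPM with both stresses and 31.7, 18.7 and 37.3 CPM in fed low-salt larvae (log2 fold change -4.66 ± 0.50). In all 3 no unfed high-salt library reached a fed low-salt library. Of the 6 that rose, ins-20 (ZK84.7) had the highest value and was chosen for it, with 8.98, 9.16 and 6.81 CPM in the unfed high-salt libraries and 1.65, 0.657 and 0.648 CPM in the fed low-salt libraries (log2 fold change 3.13 ± 0.67); 3 of the 6 rose without fed low-salt A or B, and 4 rose and 9 fell without unfed high-salt A. Of 16 genes from the insulin receptor to FOXO 2 fell (12.5%, below the share of all genes) and 0 rose, with a median of -0.03. In the fit without unfed high-salt A 2 rose and 1 fell, and with upper-quartile scaling 3 rose and 1 fell with a median of 0.30. The zinc-finger gene pqm-1 (F40F8.7) had 16.004, 27.9 and 26.0 CPM in unfed high-salt larvae, against 83.8, 79.4 and 78.5 CPM in fed low-salt larvae (log2 fold change -1.78 ± 0.31, adjusted p = 0.000423), and the kinase gene sgk-1 (W10G6.2) stood at -0.70. The FOXO gene daf-16 (R13H8.1) had 219, 337 and 285 CPM with both stresses and 161, 185 and 213 CPM in fed low-salt larvae, with all unfed high-salt libraries higher but an adjusted p of 0.0765, and 0.0286 without unfed high-salt A. With unfed high-salt A left out, ins-33 stood at -8.62. The call of sgk-1 was lost without unfed high-salt A or any 1 fed low-salt library or with upper-quartile scaling (adjusted p up to 0.115).

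Of 23 genes of the AMP-activated kinase and TOR sensors 4 rose and 2 fell, with a median of 0.01. These shares, 17.4% and 8.70%, were below the 20.2% and 19.8% of all genes. Those that rose numbered 7 with upper-quartile scaling and 1 without unfed high-salt B, fed low-salt B or fed low-salt C, and those that fell ran from 0 without fed low-salt C to 5 without unfed high-salt B or with no count filter. The kinase gamma subunit genes aakg-3 (Y41G9A.3) and aakg-4 (T01B6.3) and the catalytic subunit gene aak-1 (PAR2.3) rose, at 1.46, 1.35 and 0.83, and aakg-1 (Y111B2A.8) fell, at -1.19. Of 16 dauer hormone genes 6 fell and 1 rose. The steroid hormone synthesis gene daf-9 (T13C5.1) had 4.03, 3.89 and 6.06 CPM in the unfed high-salt libraries and 16.1, 20.1 and 11.7 CPM in the fed low-salt libraries (log2 fold change -1.77 ± 0.33, adjusted p = 0.000652). The gene daf-12 (F11A1.3), its receptor, had 41.4, 42.4 and 64.0 CPM in unfed high-salt larvae, against 121, 147 and 191 CPM in fed low-salt larvae (log2 fold change -1.63 ± 0.32, adjusted p = 0.000924). The guanylate cyclase gene daf-11 (B0240.3) rose, with 24.8, 13.9 and 27.7 CPM with both stresses and 5.79, 4.48 and 4.88 CPM in fed low-salt larvae (log2 fold change 2.13 ± 0.37, adjusted p = 0.000378). The groups were separate in each of these 3, which were picked by smallest p. They were separate in 8 of the 16 members, a share near the 50.9% of all genes. In the fit without unfed high-salt B, aakg-4 stood at 0.52. The call of aakg-4 was lost without unfed high-salt B or fed low-salt B or C (adjusted p up to 0.219). The call of aak-1 was lost without unfed high-salt B or any 1 fed low-salt library or with no count filter (adjusted p up to 0.153). The call of aakg-1 was lost without fed low-salt C (adjusted p up to 0.071).

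Of 30 FMRFamide-like neuropeptide genes 6 rose and 0 fell, a share of risers near the 20.2% of all genes, with a median of 0.42. The gene flp-27 (C25H3.5) had 53.8, 50.7 and 53.8 CPM in the unfed high-salt libraries and 15.6, 12.55 and 12.8 CPM in the fed low-salt libraries (log2 fold change 1.95 ± 0.37, adjusted p = 0.000735). The genes flp-21 (C26F1.10) and flp-12 (C05E11.8) stood at 1.26 and 1.22. The number that rose depended on the fit: it was 3 without unfed high-salt B or C, 3, 2 and 2 with fed low-salt A, B or C left out, 11 with only the 2 groups in the fit and 13 with upper-quartile scaling. The call of flp-12 was lost without fed low-salt B or C (adjusted p up to 0.1).

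Genes of digestion fell in most members, while enzymes of detoxification went both ways. Of 70 digestive enzyme genes 42 fell and 7 rose, with a median of -1.53. The cathepsin B gene cpr-5 (W07B8.5) had 16.3, 7.74 and 11.4 CPM in unfed high-salt larvae, against 729.6, 544 and 583 CPM in fed low-salt larvae (log2 fold change -5.72 ± 0.61, adjusted p = 7.96e-06). The aspartyl protease gene asp-13 (F28A12.4) had 13.7, 22.6 and 28.4 CPM with both stresses and 303, 257 and 268 CPM in fed low-salt larvae (log2 fold change -3.67 ± 0.34). The lysozyme gene lys-2 (Y22F5A.5) had 8.29, 4.35 and 9.76 CPM in the unfed high-salt libraries and 194, 149.7 and 253 CPM in the fed low-salt libraries (log2 fold change -4.74 ± 0.50). All 3 were separate by more than 5-fold. Against them, the lysozyme gene ilys-6 (W03D2.7) had 376 reads in the unfed high-salt libraries together and 1 read in fed low-salt C, a ratio of 852 on the same scale with a 95% exact interval of 152 to 33752 for counting error. The 7 that rose became 4 without fed low-salt B or C. Of 169 C-type lectin genes tested, out of 239 matched, 46 fell and 27 rose. The gene clec-47 (T09F5.9) had 0, 0.641 and 1.501 CPM in unfed high-salt larvae, against 64.6, 74.3 and 75.8 CPM in fed low-salt larvae (log2 fold change -6.48 ± 0.57, adjusted p = 2.16e-06). The gene clec-180 (F32E10.3) had 6.68, 3.07 and 5.14 CPM with both stresses and 138, 170.2 and 81.8 CPM in fed low-salt larvae (log2 fold change -4.74 ± 0.52). The median of the lectins was 0.43 although more members fell than rose, and it was -0.69 without unfed high-salt A, with 60 lower and 16 higher. The number that rose was 42 without unfed high-salt C, 17, 12 and 12 with fed low-salt A, B or C left out, and 63 with DESeq2. For clec-47, leaving out unfed high-salt C gave -7.43.

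Of 74 cytochrome P450 genes 21 fell and 11 rose (28.4% and 14.9%, beside 19.8% and 20.2% of all genes), with a median of -0.13. Upper-quartile scaling gave 18 higher and 12 lower with a median of 0.31, so that the balance of calls turned. The gene cyp-13A2 (T10B9.7) had 2.53, 1.33 and 1.097 CPM in the unfed high-salt libraries and 91.4, 98.7 and 113 CPM in the fed low-salt libraries (log2 fold change -6.01 ± 0.43, adjusted p = 7.34e-07). The gene cyp-34A2 (T10H4.11) rose, with 17.3, 18.2 and 11.7 CPM in unfed high-salt larvae, against 5.18, 3.35 and 5.38 CPM in fed low-salt larvae (log2 fold change 1.75 ± 0.31). Of 67 UDP-glucuronosyltransferase genes 24 fell and 9 rose (median -0.43), among them ugt-62 (M88.1) with 9.10, 4.12 and 9.47 CPM with both stresses and 65.9, 79.0 and 87.3 CPM in fed low-salt larvae (log2 fold change -3.37 ± 0.38). Of 49 glutathione S-transferase genes 12 fell and 10 rose, a share of risers near that of all genes, with a median of -0.21. Upper-quartile scaling gave 14 higher and 8 lower with a median of 0.22, and the balance also turned, by at most 2 genes, with a filter of 5 CPM in 3 libraries or without unfed high-salt C. The omega-class gene gsto-1 (C29E4.7) had 0.921, 0.412 and 1.67 CPM in the unfed high-salt libraries and 24.0, 20.9 and 19.6 CPM in the fed low-salt libraries (log2 fold change -4.43 ± 0.43). The gene gst-26 (Y53F4B.29) had 2.53, 2.06 and 1.21 CPM in unfed high-salt larvae, against 46.7, 39.4 and 46.0 CPM in fed low-salt larvae (log2 fold change -4.53 ± 0.45). The groups were separate in each gene named. The 11 P450 genes that rose became 7 without any 1 fed low-salt library, and the 10 transferases 5 without fed low-salt A or C. The log2 fold change of gsto-1 was -5.21 without unfed high-salt C.

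Most markers of the intestine fell. Calls were mostly lower ones among germline markers and mostly higher ones among neuron markers. Of 19 intestine markers 14 fell and 2 rose, and their summed level was 2170 to 3645 CPM in unfed high-salt and 8518 to 9705 CPM in fed low-salt libraries. The intestinal actin gene act-5 (T25C8.2) had 117, 123 and 229.7 CPM with both stresses and 1352, 1408 and 1649.6 CPM in fed low-salt larvae (log2 fold change -3.23 ± 0.40, adjusted p = 2.52e-05). The gut esterase gene ges-1 (R12A1.4) had 9.79, 7.42 and 6.64 CPM in the unfed high-salt libraries and 40.95, 38.7 and 54.4 CPM in the fed low-salt libraries (log2 fold change -2.50 ± 0.27). By contrast elt-2 (C33D3.1), the GATA factor that defines the intestine, rose, with 39.3, 63.2 and 46.9 CPM in unfed high-salt larvae, against 20.7, 25.0 and 27.6 CPM in fed low-salt larvae (log2 fold change 1.03 ± 0.26). The metallothionein gene mtl-1 rose too (3.03), and both were named after the count was seen. Of 29 germline markers 14 fell and 2 rose, with sums of 383 to 454 CPM in unfed high-salt and 915 to 1137 CPM in fed low-salt libraries. The germ granule gene pgl-1 (ZK381.4) had 3.22, 10.4 and 9.01 CPM with both stresses and 79.7, 82.4 and 95.3 CPM in fed low-salt larvae (log2 fold change -3.48 ± 0.40). The gene glh-1 (T21G5.3) had 16.3, 20.8 and 22.9 CPM in the unfed high-salt libraries and 146, 162 and 194 CPM in the fed low-salt libraries (log2 fold change -3.06 ± 0.31). The RNA-binding gene fbf-2 (F21H12.5) rose, with 46.1, 72.7 and 52.6 CPM in unfed high-salt larvae, against 17.4, 17.8 and 15.7 CPM in fed low-salt larvae (log2 fold change 1.75 ± 0.25, adjusted p = 7.86e-05). With unfed high-salt B left out, mtl-1 stood at 2.09. The call of elt-2 was lost without fed low-salt A or with no count filter (adjusted p up to 0.056). The call of mtl-1 was lost without fed low-salt C (adjusted p up to 0.0502).

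Of 29 neuron markers 12 rose and 1 fell, with a median of 0.66. Their sums were 2390 to 4501 CPM in unfed high-salt and 2581 to 3023 CPM in fed low-salt libraries, unfed high-salt A being the lowest of all 6, so that the sums overlapped. The channel gene tax-4 (ZC84.2) had 9.90, 7.97 and 9.53 CPM with both stresses and 1.04, 1.85 and 2.14 CPM in fed low-salt larvae (log2 fold change 2.42 ± 0.38, adjusted p = 0.000167). The pan-neuronal gene unc-119 (M142.1) had 60.9, 33.9 and 30.8 CPM in the unfed high-salt libraries and 18.95, 17.5 and 17.96 CPM in the fed low-salt libraries (log2 fold change 1.202 ± 0.27). The ligand gene daf-7 (B0412.2) fell, with 29.01, 36.7 and 41.3 CPM in unfed high-salt larvae, against 65.9, 53.3 and 92.8 CPM in fed low-salt larvae (log2 fold change -0.99 ± 0.25). The number of neuron markers that rose was 5 without unfed high-salt C, 4, 3 and 5 with fed low-salt A, B or C left out, and 15 without unfed high-salt A. Of 22 muscle markers 3 rose and 4 fell (13.6% and 18.2%, beside 20.2% and 19.8% of all genes). With upper-quartile scaling 4 rose and 3 fell. The pharyngeal myosin genes myo-2 (T18D3.4) and myo-1 (R06C7.10) rose, myo-2 with 1094, 2592 and 3279.6 CPM with both stresses and 484, 559 and 952 CPM in fed low-salt larvae (log2 fold change 1.80 ± 0.39, adjusted p = 0.00217), and the troponin gene unc-27 (ZK721.2) fell, with 94.6, 155 and 122 CPM in the unfed high-salt libraries and 547, 552 and 659 CPM in the fed low-salt libraries (log2 fold change -2.24 ± 0.34). The call of daf-7 was lost without fed low-salt C (adjusted p up to 0.0654).

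Of 20 epidermis markers 8 fell and 3 rose, and those that fell include the collagen genes already described. The 3 that rose became 0, 1 and 1 with fed low-salt A, B or C left out. The epidermal factor genes lin-26 (F18A1.2) and elt-3 (K02B9.4) were named after their values were seen. The first overlapped between the groups, with 54.3, 89.9 and 52.1 CPM in unfed high-salt larvae, against 72.0, 89.4 and 75.02 CPM in fed low-salt larvae (adjusted p = 0.442). The second rose, with 63.3, 92.4 and 90.3 CPM with both stresses and 46.4, 45.7 and 47.4 CPM in fed low-salt larvae (log2 fold change 0.82 ± 0.23). Of 21 embryo markers 4 fell and 3 rose, and 5 fell and 0 rose without unfed high-salt A, while 2 fell without unfed high-salt B or fed low-salt B or C and 1 with upper-quartile scaling. Their sums were 75.7 to 127 CPM in unfed high-salt and 154 to 156 CPM in fed low-salt libraries. Markers of the adult, oocyte and sperm summed to 90.0, 19.9 and 16.1 CPM in the unfed high-salt libraries, against 22.4 to 29.2 CPM in fed low-salt libraries. Of 12 of them 3 rose (25%, beside 20.2% of all genes), vit-6, vit-2 and spe-11. The number that rose was 0 without unfed high-salt A or fed low-salt C, 1 without fed low-salt A or B, and 5 without unfed high-salt C. The yolk gene vit-6 (K07H8.6) had 13.5, 2.15 and 0.982 CPM in the unfed high-salt libraries and 1.097, 0.478 and 0.410 CPM in the fed low-salt libraries. The part of these tissue shares in the other results was not tested. In the fit without fed low-salt B, spe-11 stood at 4.96. For vit-6, vit-2 and spe-11, leaving out unfed high-salt A gave 1.299, 0.93 and 0.76. The call of elt-3 was lost without unfed high-salt B or C or any 1 fed low-salt library or with no count filter (adjusted p up to 0.175). The call of vit-6 was lost without unfed high-salt A or fed low-salt B or C (adjusted p up to 0.264). The call of vit-2 was lost without unfed high-salt A or any 1 fed low-salt library (adjusted p up to 0.435). It was also lost with the 2 groups alone in the fit, counts thinned to equal depth or the letter as a replicate block. The call of spe-11 was lost without unfed high-salt A or fed low-salt A or C (adjusted p up to 0.627). With the letter as a replicate block the call of spe-11 was lost as well.

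The same fit gives the 2 groups with a single stress, which share libraries with the comparison above, so the counts are set side by side only. Against fed low-salt larvae 7223 genes were called in unfed high-salt (40.1%), 6898 in fed high-salt (38.3%) and 1384 in unfed low-salt larvae (7.68%). Between unfed high-salt and unfed low-salt larvae 3230 genes were called (17.9%), 1212 higher and 2018 lower, and between unfed high-salt and fed high-salt larvae 14 (0.0777%), 13 higher and 1 lower, with 1428 genes at an unadjusted p under 0.05. Without unfed high-salt A the counts against unfed low-salt and fed high-salt larvae were 4209 and 19. Leaving out fed high-salt B or C, the libraries with the most ribosomal RNA reads, gave 0 genes by the same edgeR test between unfed and fed high-salt larvae, with 1049 and 1243 genes at an unadjusted p under 0.05. The count of unfed low-salt against fed low-salt larvae moved to 2989 when unfed high-salt A was omitted and to 889 when fed high-salt B was. Over all 18028 genes tested, against fed low-salt larvae, 3647, 2905 and 643 rose in unfed high-salt, fed high-salt and unfed low-salt larvae. In the same order 3576, 3993 and 741 fell. By list, of 82 ribosomal protein genes 74, 82 and 0 fell in unfed high-salt, fed high-salt and unfed low-salt larvae, of 33 proteasome genes 30, 31 and 0, and of the 6 furrow collagen genes 6, 6 and 0. Of 14 small heat shock genes 4, 5 and 8 fell. Insulin-like peptide genes rose in 6, 3 and 7 of 30 and fell in 6, 7 and 0, and 11 were lower in unfed high-salt than in unfed low-salt larvae. FMRFamide-like neuropeptide genes rose in 6, 2 and 24 of 30, and 11 were lower in unfed high-salt than in unfed low-salt larvae.

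The 14 genes that differed between unfed and fed high-salt larvae were listed after that count was seen. Their lowest adjusted p was 0.107 without fed high-salt B and 0.0522 without fed high-salt C, and each kept its direction in both fits. Several belong to peroxisomal fatty-acid shortening, which makes ascaroside pheromones. The hydratase gene maoc-1 (E04F6.3) had 58.7, 62.6 and 41.9 CPM in unfed high-salt larvae, against 177, 152 and 121 CPM in fed low-salt larvae, and 16.02, 11.5 and 10.8 CPM in fed high-salt and 68.95, 69.4 and 76.9 CPM in unfed low-salt larvae. The thiolase gene daf-22 (Y57A10C.6) had 114, 131 and 101 CPM with both stresses and 339, 324 and 252 CPM in fed low-salt larvae, and 39.9, 36.0 and 28.6 CPM in fed high-salt and 169, 132 and 169.6 CPM in unfed low-salt larvae. Both genes fell in unfed high-salt against fed low-salt larvae (log2 fold changes -1.46 and -1.40). They were higher than in fed high-salt larvae without overlap, by log2 difference 2.08 ± 0.27, adjusted p = 0.00668 for maoc-1 and log2 difference 1.72 ± 0.25, adjusted p = 0.0134 for daf-22. The others that were higher than in fed high-salt larvae are acs-7, pmp-2, acox-1.1, acds-10, B0272.4, mecr-2, dhrs-4, ceeh-2, nhr-11, irg-3 and fat-5, at log2 differences of 1.42 to 2.67. Of the 13, 8 were lower than in fed low-salt larvae, fat-5 was higher, and irg-3, dhrs-4, ceeh-2 and nhr-11 did not differ past the threshold. Without unfed high-salt A 3 of the 13, irg-3, mecr-2 and pmp-2, were not called against fed high-salt larvae (adjusted p = 0.0706, 0.0539 and 0.051). The desaturase gene fat-5 had 67.6, 39.6 and 28.6 CPM in the unfed high-salt libraries and 18.95, 21.995 and 16.98 CPM in the fed low-salt libraries, 8.76, 9.64 and 10.2 CPM in fed high-salt and 148, 124 and 95.4 CPM in unfed low-salt larvae. The remaining gene, abu-14 (ZK1067.7), of a family rich in glutamine and asparagine, was lower with both stresses than in any other group. It had 13.9, 15.1 and 13.1 CPM in unfed high-salt larvae, against 139, 207 and 225 CPM in fed low-salt larvae, 108, 79.7 and 94.6 CPM in fed high-salt and 213, 170.4 and 498 CPM in unfed low-salt larvae (log2 difference -2.74 ± 0.37, adjusted p = 0.0089 against fed high-salt larvae; log2 difference -4.38 ± 0.40, adjusted p = 4.41e-06 against unfed low-salt larvae). The call of acox-1.1 was lost without fed low-salt B or with upper-quartile scaling or a filter of 5 CPM in 3 libraries (adjusted p up to 0.155). The call of B0272.4 was lost with upper-quartile scaling (adjusted p up to 0.0786). The call of mecr-2 was lost without unfed high-salt C or fed low-salt A or B or with upper-quartile scaling or a filter of 5 CPM in 3 libraries (adjusted p up to 0.212).

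**Figure D5:**
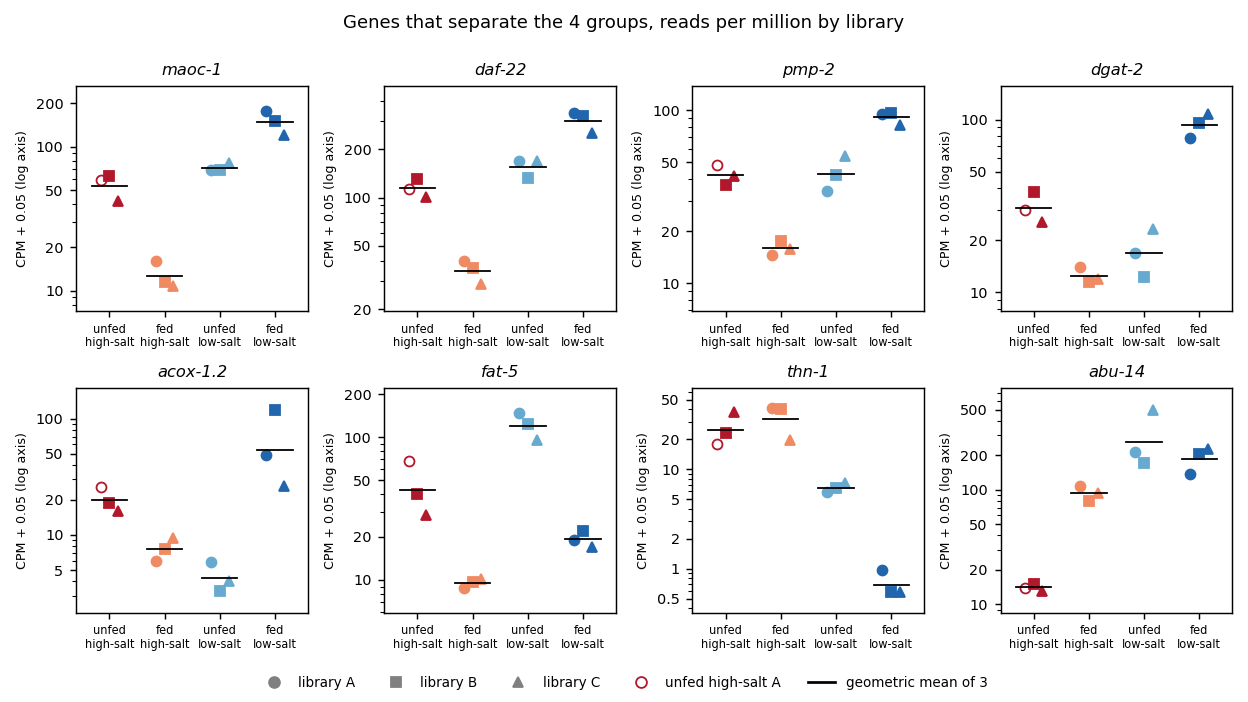
CPM plus 0.05 on a log axis in each library for 8 genes across the 4 groups, unfed high-salt at the left and fed low-salt at the right; lines are geometric means of 3 libraries and the open circle is unfed high-salt A. The unfed high-salt libraries lie between the fed high-salt and fed low-salt libraries in maoc-1, daf-22, pmp-2 and dgat-2, and below all other libraries in abu-14.

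The salt by food interaction, the effect of removing food at 500 mM NaCl minus that at 100 mM NaCl, was called in 360 genes, positive in 282 (1.56%) and negative in 78 (0.433%), and in 967 without unfed high-salt A. Without fed high-salt B or C it was called in 76 and 178 genes, and upper-quartile scaling gave 185 positive and 194 negative. Among genes called between unfed high-salt and fed low-salt larvae, the 10 with the smallest interaction p were dgat-2, maoc-1, acox-1.2, daf-22, pmp-2, thn-1, acds-10, C29F3.7, K08D8.4 and F19B2.5. The diacylglycerol acyltransferase gene dgat-2 (F59A1.10) had 29.8, 37.9 and 25.6 CPM with both stresses and 78.2, 94.8 and 107 CPM in fed low-salt larvae, 13.98, 11.5 and 11.98 CPM in fed high-salt and 16.96, 12.2 and 23.2 CPM in unfed low-salt larvae (interaction 3.74 ± 0.38, adjusted p = 0.000583). The acyl-CoA oxidase gene acox-1.2 (F08A8.2) had 25.9, 18.8 and 15.997 CPM in the unfed high-salt libraries and 48.3, 118 and 26.3 CPM in the fed low-salt libraries, 5.97, 7.57 and 9.34 CPM in fed high-salt and 5.84, 3.28 and 3.99 CPM in unfed low-salt larvae (interaction 5.30 ± 0.63, adjusted p = 0.00151); reads of this family's near neighbours may be shared. In both genes every single-stress library lay below every unfed high-salt library. The difference from unfed low-salt larvae passed, by log2 difference 0.84 ± 0.26, adjusted p = 0.0375 for dgat-2 and log2 difference 2.21 ± 0.44, adjusted p = 0.00229 for acox-1.2, and that from fed high-salt larvae did not (adjusted p = 0.0912 and 0.44). The thaumatin-family gene thn-1 (F28D1.3) was the exception in sign, with 17.7, 22.9 and 37.3 CPM in unfed high-salt larvae, against 0.914, 0.538 and 0.529 CPM in fed low-salt larvae, 40.7, 40.0 and 19.5 CPM in fed high-salt and 5.79, 6.47 and 7.26 CPM in unfed low-salt larvae (interaction -3.72 ± 0.50, adjusted p = 0.00419). The log2 fold change of acox-1.2 was -0.93 without fed low-salt B. The call of acox-1.2 was lost without fed low-salt B (adjusted p up to 0.0614). The call of F19B2.5 was lost without unfed high-salt C or any 1 fed low-salt library or with upper-quartile scaling, a filter of 5 CPM in 3 libraries, the 2 groups alone in the fit or counts thinned to equal depth (adjusted p up to 0.185).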

How the data were processed

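mRNA from whole larvae was sequenced in 12 libraries, 3 in each of 4 groups, from poly(A) RNA extracted with TRIzol, a kit that keeps no strand and 15 PCR cycles, per the labels' protocols. The authors deposited raw read counts per gene for each library; the submitters' processing notes name Bowtie 1.1.2, HTSeq, Cuffdiff and edgeR. The settings and the genome build behind the counts are not given in the sources used here. Without strand, reads of overlapping and antisense genes cannot be told apart, and near-identical copies may share reads. Depth was 5613260 to 76542711 reads on genes in the 6 libraries compared, and a count of 3 reads in the shallowest is 0.534 CPM before scaling; reads are PCR products, so intervals cover counting error only.

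Groups came from the sample titles. From the counts, edgeR 4.0.16 in R 4.3.3 (limma 3.58.1 loaded) gave TMM factors, the filterByExpr filter (minimum count 10, minimum total 15) and a robust quasi-likelihood fit with 1 coefficient for each of the 4 groups over all 12 libraries, which gives all groups a shared estimate of the spread. The contrast was unfed high-salt minus fed low-salt, adjusted by Benjamini-Hochberg over 18028 genes at 0.05. Standard errors are the log2 fold change divided by the square root of F. The p-values measure the spread between replicates labelled biological. CPM are reads per 1000000 of the TMM-scaled library. The fit was tested on simulated counts, with far fewer changed genes than were called in the data. Of 100 genes changed 2-fold it recovered 14, and of 100 changed 4-fold it recovered 82, with 6 false calls. Benjamini-Hochberg adjustment is stricter where fewer genes differ, so these shares do not give the recovery in the data. A gene that did not pass may still differ by 2-fold. DESeq2 1.42.0, other scalings, filters, depths and left-out libraries were alternatives.

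Genes were put in 42 lists by current RefSeq symbols, and 21 listed names had no match. The groups compared, the lists and the genes were chosen with earlier results of these data known. Named genes are the called genes with the 10 highest and 10 lowest log2 fold changes with at least 10 CPM in the higher group and no overlap, up to 4 members of each list by smallest p, all members of lists of at most 8, the 10 smallest interaction p and 17 focal genes such as gpdh-1, sod-3 and daf-16. Genes outside the rule are said to be named after their values were seen; these also include tps-1, tps-2, ire-1, pek-1, atf-6, hsf-1, hsp-16.2 and cpt-3. The authors' own tables of comparisons were not used. No sequences are shown, since no sequence table was at hand.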

Additional observations from a re-analysis of the deposited data

Results flagged for a closer look

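The effect of removing food differed between 500 and 100 mM NaCl in 33 of the 208 genes named, by the salt by food interaction of the edgeR quasi-likelihood fit with Benjamini-Hochberg adjustment over all genes. Each value is the log2 effect of removing food at 500 mM NaCl minus that at 100 mM NaCl, and it was positive in 30 genes. Some of the 208 were named for a small interaction p or for a call between unfed and fed high-salt larvae, a part of the interaction. The 33 and the 30 thus partly follow from that choice and cannot tell how common the interaction or its sign is. Over all 18028 genes tested the interaction was called as positive in 282 (1.56%) and as negative in 78 (0.433%). Genes of fatty-acid shortening, activation, transport and storage were acox-1.2 (5.30, adjusted p = 0.00151), acox-1.1 (2.17, adjusted p = 0.00784), dgat-2 (3.74, adjusted p = 0.000583), maoc-1 (3.14, adjusted p = 0.00136), daf-22 (2.68, adjusted p = 0.00412), pmp-2 (2.48, adjusted p = 0.00419), dhs-28 (2.12, adjusted p = 0.0134), acs-7 (3.07, adjusted p = 0.00948) and kat-1 (1.80, adjusted p = 0.0464). Enzymes, a heat shock gene and timing genes described above were lys-2 (3.84, adjusted p = 0.0101), ugt-62 (2.99, adjusted p = 0.0126), gst-26 (2.84, adjusted p = 0.0313), msra-1 (2.34, adjusted p = 0.0336), fbp-1 (1.67, adjusted p = 0.0457), daf-9 (2.72, adjusted p = 0.0124), lep-5 (6.22, adjusted p = 0.0201) and hsp-12.3 (2.52, adjusted p = 0.0288). Among germline and embryo markers the values were fbf-2 (1.69, adjusted p = 0.0247), glh-1 (1.89, adjusted p = 0.0325), cey-2 (2.24, adjusted p = 0.0277) and csr-1 (1.85, adjusted p = 0.0443). The others that were positive were B0272.4 (2.54, adjusted p = 0.00784), C29F3.7 (3.00, adjusted p = 0.00479), F19B2.5 (3.27, adjusted p = 0.00505), K08D8.4 (4.71, adjusted p = 0.00505), acds-10 (2.44, adjusted p = 0.00479), asb-1 (1.77, adjusted p = 0.0252), ceeh-2 (1.68, adjusted p = 0.0392), mecr-2 (2.11, adjusted p = 0.0183) and nhr-11 (1.80, adjusted p = 0.0183). The interaction was negative in thn-1 (-3.72, adjusted p = 0.00419), abu-14 (-3.37, adjusted p = 0.00683) and F13A2.4 (-4.93, adjusted p = 0.0372). All 33 had an adjusted p under 0.05 without unfed high-salt A. Without fed high-salt B 19 of the 33 did, and without fed high-salt C 27, with the same sign in each gene. Groups of 3 libraries are too small for a check of single samples far from the rest.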

How the results depend on the processing

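The count of genes called was 7223 and lay within 1.5 times that in each alternative other than leaving out fed low-salt B or C. Leaving out 1 library at a time gave 4599 to 7653 genes in all, 1820 to 4074 higher (2118, 1820 and 1868 with fed low-salt A, B or C left out) and 2779 to 3839 lower. DESeq2 called 9460 genes, 5754 of them higher, so that 60.8% were higher ones, against 50.5% in the main fit and 67.7% with upper-quartile scaling (5309 higher, 2532 lower). The cause of these shifts was not tested. No count filter gave 7426, a filter of 5 CPM in 3 libraries 5821, the 2 groups alone in the fit 6336, and counts thinned to equal depth 6237. Of the 208 genes named by the rule or by the unfed against fed high-salt contrast 197 were called, and 170 of these in each of the 25 alternatives that tested them and gave an adjusted p. None of the 197 changed direction. Among the genes not called the sign could change, as in col-19, at 1.71 in the main fit and -0.60 without unfed high-salt A. Fits without unfed high-salt A and fed high-salt C (7384 genes) and of the 2 groups without unfed high-salt A (8400) were added after the data were seen, as were the fits of the side-by-side contrasts without fed high-salt B or C, with ribosomal RNA genes removed and with upper-quartile scaling. The letters A to C were not used as pairs. Deviations from the group means correlated at 0.235, 0.0486 and 0.243 for same-lettered pairs of unfed high-salt and fed low-salt libraries. For the other pairs they correlated at -0.232 to 0.0895, and each letter correlated best with its own except B. With so few libraries in a group these values cannot tell whether the letters mark shared batches. With the letter as a replicate block 7081 genes were called, 3321 higher and 3760 lower, and vit-2 and spe-11 lost their calls (adjusted p = 0.0583 and 0.083). Unfed high-salt A, at 5613260 reads and 38.6% aligned, limits what can be read of genes near 1 CPM in its group. Fed low-salt C was sequenced far deeper than the rest, at 76542711 reads.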
